A study of Homo sapiens with 11 samples.

Results

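The transcriptional response of neuroblastoma cells to a day of vorinostat was read from 6 of the 11 arrays of the study, 3 from cells kept 24 h with vorinostat and 3 from cells kept 24 h with its solvent dimethyl sulfoxide (DMSO), in all genes outside autophagy. SK-N-BE(2)-C is a human neuroblastoma line with amplified MYCN, and all arrays of the study come from this line. Vorinostat (suberoylanilide hydroxamic acid, SAHA) was given at 500 nM, and the remaining 5 arrays hold cells after 6 d, 3 with DMSO and 2 with vorinostat. Total RNA was hybridized to Illumina HT-12 v4 BeadChips, on which each probe reports the transcripts of a gene as an intensity without a unit. After the autophagy, autophagy receptor and lysosome genes were set aside, 9780 of the 9941 genes with a detectable probe remained. The methods describe 3 independent replicate experiments in this line, in which cells were treated with vorinostat and with solvent. The spread between the 3 arrays of a group therefore holds culture and array error but no differences between tumors.

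Histone deacetylases remove acetyl groups from lysines of histones and of many other proteins. The zinc-dependent enzymes carry the numbers of the HDAC genes, and a hydroxamic acid such as vorinostat occupies their active site and chelates the zinc ion. Acetylated histones mark open chromatin, and cells treated with these inhibitors are known to raise some transcripts and lower others, with slowed division and, in neuroblastoma cells, outgrowth of neurites. Neuroblastoma arises from the sympathoadrenal lineage of the neural crest and often keeps the enzymes, transcription factors and secretory granules of noradrenergic cells.

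The 6 arrays carried the markers of that lineage. MYCN, the transcription factor amplified in this line, lay between 18840 and 22600 on the 6 arrays, HAND2, a noradrenergic transcription factor, between 1703 and 2256, and DBH, which converts dopamine to noradrenaline, between 1961 and 3333. None of the Schwann cell and endothelial markers was detectable, and of the leukocyte and epithelial lists only CD14, CD68 and KRT19 were, at intensities of 139 to 259. Each 24 h group was hybridized on a BeadChip of its own, so a chip effect and the effect of vorinostat cannot be told apart at this time. Before normalization the vorinostat arrays were brighter, with mean intensities of 401 to 413 against 272 to 302 on the DMSO arrays, and held more detected probes, 18302 to 18696 against 15947 to 16878. At 6 d the mean intensities overlapped, at 283 and 338 on the vorinostat arrays and 323 to 383 on the DMSO arrays, and the vorinostat arrays held fewer detected probes, 16346 and 16841 against 17444 to 18159. The part of brightness and detection in the results below was not tested. Replicate arrays correlated with r between 0.990 and 0.996 in both 24 h groups across the 9941 genes with a detectable probe, 1 probe per gene.

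Promoters of 5 of the genes with the largest changes are shown because they span the classes described below, a surface glycoprotein gene and a histone variant gene that rose and a polyamine enzyme gene, an RNA polymerase III factor gene and a replication histone gene that fell. Each run holds the 250 bases before the RefSeq start of the gene on GRCh38.p14, read 5′ to 3′ on the strand of the gene. The stretches lie at chr6:106975628-106975877, minus strand, for CD24, at chr12:14774155-14774404, plus strand, for H2AJ, at chr1:11060019-11060268, minus strand, for SRM, at chr6:110958456-110958705, plus strand, for GTF3C6, and at chr6:27146859-27147108, minus strand, for H2BC12. Capitals mark GC boxes (GGGCGG) in CD24, CCAAT boxes (CCAAT) in H2AJ, GC boxes and an E-box (CACGTG) in SRM, an E-box in GTF3C6, and TATA boxes (TATAAA) and an octamer (ATGCAAAT) in H2BC12, each searched on both strands.
CD24: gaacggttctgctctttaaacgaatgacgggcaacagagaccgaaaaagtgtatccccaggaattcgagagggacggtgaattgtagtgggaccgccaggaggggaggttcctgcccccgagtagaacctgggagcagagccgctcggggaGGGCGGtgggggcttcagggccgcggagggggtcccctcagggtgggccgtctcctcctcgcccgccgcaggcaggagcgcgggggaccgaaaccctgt
H2AJ: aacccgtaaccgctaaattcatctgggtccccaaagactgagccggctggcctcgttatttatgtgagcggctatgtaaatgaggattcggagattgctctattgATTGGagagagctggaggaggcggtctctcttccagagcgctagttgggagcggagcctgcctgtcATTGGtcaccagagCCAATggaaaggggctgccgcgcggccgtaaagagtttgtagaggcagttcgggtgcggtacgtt
SRM: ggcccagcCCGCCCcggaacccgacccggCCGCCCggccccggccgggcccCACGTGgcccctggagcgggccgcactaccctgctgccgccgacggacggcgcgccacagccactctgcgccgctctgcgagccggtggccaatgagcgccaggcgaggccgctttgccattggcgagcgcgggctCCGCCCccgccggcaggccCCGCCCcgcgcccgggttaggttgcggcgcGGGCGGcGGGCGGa
GTF3C6: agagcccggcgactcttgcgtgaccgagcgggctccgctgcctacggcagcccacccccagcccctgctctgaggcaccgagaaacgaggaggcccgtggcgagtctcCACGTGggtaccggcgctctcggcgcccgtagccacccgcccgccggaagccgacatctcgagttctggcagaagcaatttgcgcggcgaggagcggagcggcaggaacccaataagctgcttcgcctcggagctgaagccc
H2BC12: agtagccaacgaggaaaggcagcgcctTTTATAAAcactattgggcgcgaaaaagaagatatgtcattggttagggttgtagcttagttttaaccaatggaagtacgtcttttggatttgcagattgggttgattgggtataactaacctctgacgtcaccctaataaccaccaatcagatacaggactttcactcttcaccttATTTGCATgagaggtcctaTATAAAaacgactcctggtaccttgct
SRM held 6 GC boxes and 1 E-box, the letters that MYC family proteins bind, and H2BC12 held 3 TATA boxes, 2 of them overlapping on opposite strands, 6 CCAAT boxes that are not capitalized, and the octamer, an element known from H2B promoters. Such matches describe the letters only. RefSeq promoters were matched for 7959 of the 9780 genes, and 68.0% of these held a GC box, against 68.3% of the 1449 matched genes that rose, 68.2% of the 929 matched genes that fell and 42.3% of all 27305 promoters in the table. An E-box stood in 9.26% of the tested genes, 7.32% of those that rose and 10.1% of those that fell (6.49% of all promoters), a CCAAT box in 36.5%, 34.3% and 40.2% (33.0%), a TATA box in 5.04%, 5.24% and 5.81% (11.1%), and the octamer, added after the values were seen, in 1.16%, 1.38% and 1.08% (1.66%).

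After 24 h, 1798 of the 9780 genes (18.4%) were higher with vorinostat and 1110 (11.3%) were lower at an adjusted p under 0.05 in limma's moderated linear model, with Benjamini-Hochberg adjustment over all 9941 genes. Most changes were small. The median log2 difference was 0.43 among the genes that rose and fell by 0.41 among those that fell, and the log2 difference exceeded 1 in 93 genes and lay below -1 in 19. The log2 difference exceeded 2 in 5 genes and lay below -2 in 0. Intensities include the background of the array, so a fold change understates the change of the transcript, and with background removed the log2 differences of called genes were a median 1.28 times as large. When the arrays were scaled by their medians rather than left as normalized by the authors, the share of higher genes among those called moved from 62.2% to 51.5%. A gene was tested if its probe was detected on all 3 arrays of either group. With only probes detected on all 6 arrays, 1311 genes outside autophagy were higher and 1072 lower. The 3 vorinostat arrays lay wholly above the 3 DMSO arrays in 27.8% of the genes and wholly below them in 19.8%. Counts for gene lists below are to be read against the shares of all genes, 18.4% higher and 11.3% lower. Called genes detected in a single group are counted in the lists, though their direction follows from the filter.

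**Figure D1:**
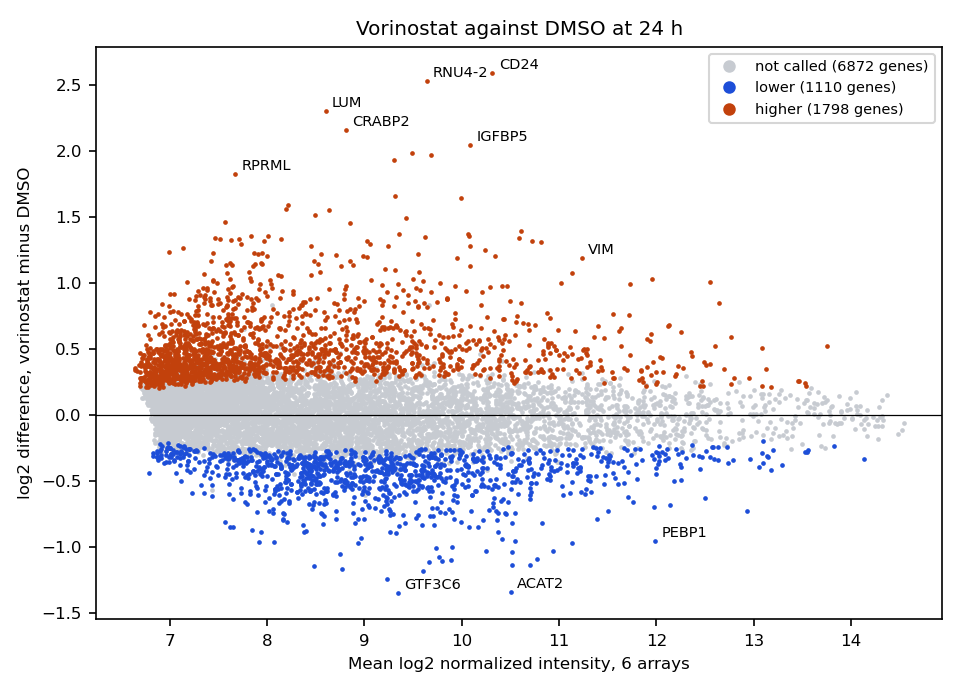
Each point is 1 of 9780 genes, with its mean log2 normalized intensity over the 6 arrays on the horizontal axis and the log2 difference of vorinostat minus DMSO at 24 h on the vertical axis. The 1798 genes that rose reach 2.59 (CD24), and the 1110 genes that fell reach -1.35 (GTF3C6).

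The largest increases included genes of the cell surface, the extracellular matrix and the retinoic acid pathway and short noncoding RNAs. CD24, a heavily glycosylated protein anchored in the outer membrane, read 419, 670 and 501 on the DMSO arrays and 3068, 3563 and 2795 on the vorinostat arrays. All vorinostat arrays lay far above all DMSO arrays, and the gene rose 6.01-fold (log2 2.59 ± 0.16 SE, adjusted p = 2.1e-08). A dimmer CD24 probe rose by a log2 of 0.89. LUM, the collagen-binding proteoglycan lumican, read 193, 193 and 145 with DMSO and 984, 854 and 766 with vorinostat, a 4.92-fold rise (adjusted p = 1.7e-07). CRABP2, which carries retinoic acid to its nuclear receptor, read 168, 186 and 308 against 918, 947 and 972, a 4.45-fold rise (adjusted p = 3.3e-07). The third DMSO array was the highest of its group here, still well below all vorinostat arrays. IGFBP5, a secreted protein that binds insulin-like growth factors, read 507, 584 and 519 against 2018, 2682 and 1977, a 4.11-fold rise (adjusted p = 2.1e-08), and its dimmer probe moved nearly as far, by a log2 of 1.95.

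Of the 25 genes with the largest increases among those measured on all 6 arrays, the rest rose between 2.52-fold (DCX) and 5.77-fold (RNU4-2). Matrix and secreted proteins among them were CTHRC1, a collagen triple helix repeat protein (log2 1.55), MGP, an inhibitor of calcification (1.34), MFGE8, which bridges dying cells to phagocytes (1.37), and ENPP2, the autotaxin that makes lysophosphatidic acid (1.35). RAC2, a small GTPase best known from blood cells, read 202, 149 and 167 with DMSO and 565, 513 and 470 with vorinostat (log2 1.58). TMEM119, a membrane protein known as a marker of microglia, rose by a log2 of 1.56, and TMEFF2, a transmembrane protein of the brain and prostate, by 1.35. DCX, the microtubule-binding protein doublecortin of migrating neurons, read 161, 212 and 166 against 457, 477 and 414 (log2 1.33). TTC8, a subunit of the BBSome that carries cargo to cilia, rose by a log2 of 1.39, CCDC102A by 1.64, HIGD1C by 1.52, INAFM1 by 1.45 and the antisense transcript FGF14-AS2 by 1.35. H2AJ, which encodes the histone variant H2A.J, read 772, 607 and 632 with DMSO and 1625, 1913 and 1645 with vorinostat (log2 1.37). TSPAN8, a tetraspanin, read 656, 1123 and 1229 against 2002, 2868 and 2543 (log2 1.34), with the first DMSO array well below the other two. By the rule that chose them, no gene of this set had overlapping groups.

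**Figure D2:**
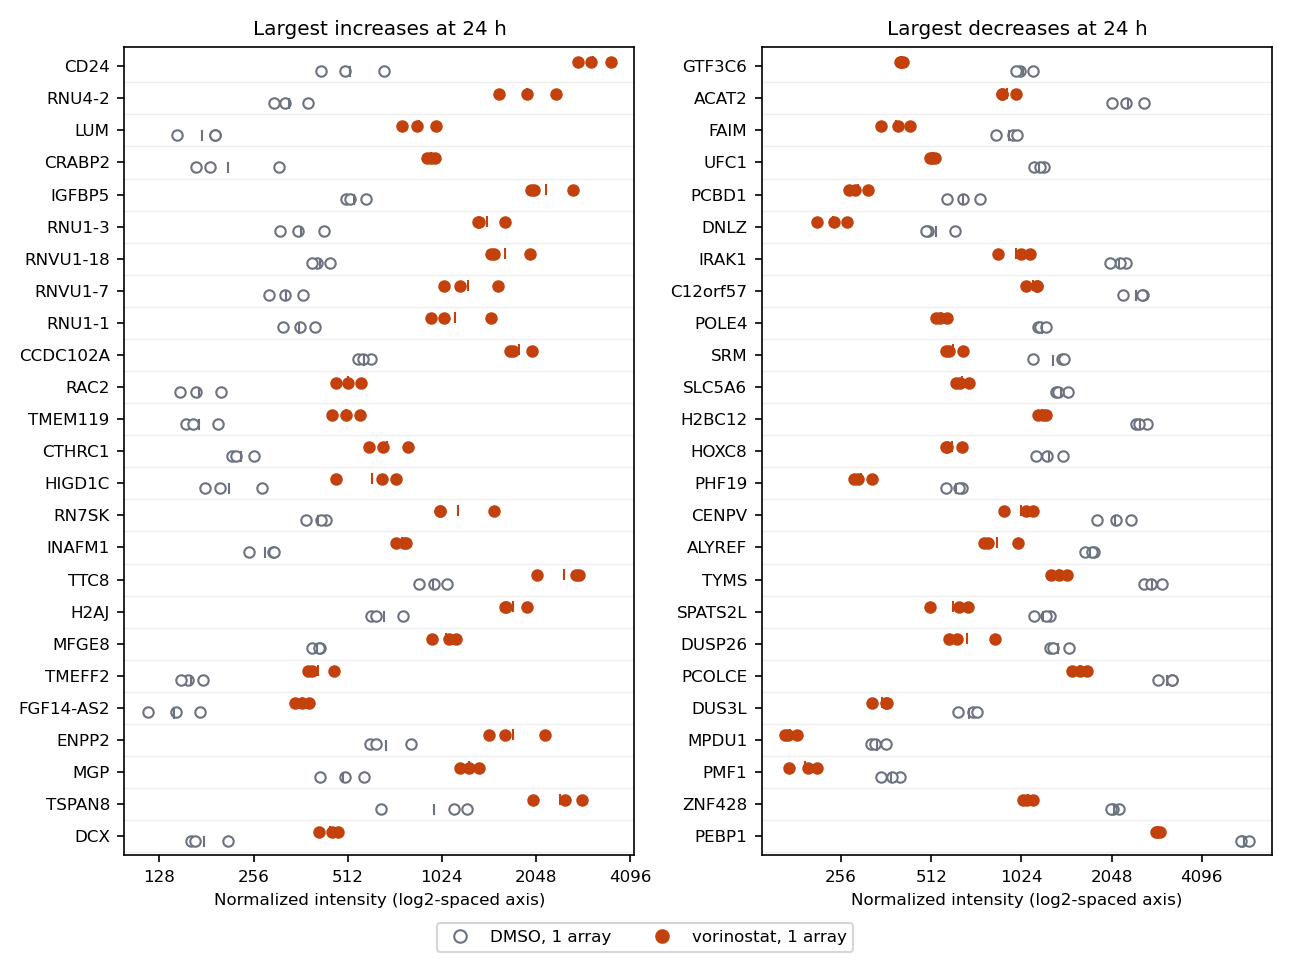
Normalized intensity on each 24 h array of the 25 genes with the largest increases (left) and the 25 with the largest decreases (right), on a log2-spaced horizontal axis, with open points for DMSO, filled points for vorinostat and a short line at each group's geometric mean. CD24 moves from 419 to 670 up to 2795 to 3563, and GTF3C6 from 982 to 1120 down to 404 to 413.

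The largest decreases were smaller than the largest increases. GTF3C6, a subunit of the factor TFIIIC that recruits RNA polymerase III to transfer RNA genes, read 1120, 1017 and 982 with DMSO and 404, 413 and 404 with vorinostat. The gene was 2.55-fold lower (log2 -1.35 ± 0.12 SE, adjusted p = 8.7e-07), and its vorinostat arrays were nearly equal. ACAT2, the cytosolic thiolase at the start of the mevalonate pathway, read 2293, 2632 and 2062 against 881, 882 and 982 and was 2.54-fold lower (adjusted p = 0.00019). SRM, spermidine synthase, read 1397, 1119 and 1420 against 589, 575 and 655 and was 2.15-fold lower (adjusted p = 1.2e-05). H2BC12, a gene for replication-dependent histone H2B, read 2463, 2690 and 2526 against 1206, 1161 and 1236 and was 2.13-fold lower (adjusted p = 2.3e-06). TYMS, the thymidylate synthase that supplies dTMP for replication, read 2623, 3008 and 2777 against 1458, 1283 and 1371 and was 2.04-fold lower (adjusted p = 3.2e-05).

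UFC1, the conjugating enzyme of the ubiquitin-like protein UFM1, read 1219, 1128 and 1186 with DMSO and 528, 507 and 517 with vorinostat, a fall of 1.19 on the log2 scale. PCBD1, which regenerates tetrahydrobiopterin for the hydroxylases of aromatic amino acids, read 742, 576 and 653 against 285, 272 and 316 (log2 -1.17), and its dimmer probe gave -1.02. FAIM, an inhibitor of FAS-driven apoptosis, had a log2 difference of -1.25 at its brightest probe and of -0.64 and -0.24 at dimmer ones, the last not past the threshold. IRAK1, a kinase of interleukin 1 and Toll-like receptor signaling, fell by 1.14, and POLE4, a subunit of DNA polymerase epsilon, by 1.12. SLC5A6, the transporter of biotin and pantothenate, fell by 1.10, PHF19, a partner of Polycomb repressive complex 2, by 1.05, and HOXC8, a homeobox factor of the trunk, by 1.08. ALYREF, an adaptor of mRNA export, read 1789, 1668 and 1760 against 792, 770 and 1001 (log2 -1.03), while its dimmer probe gave -0.19 and did not pass. Further decreases between 0.96 and 1.15 on the log2 scale were measured for DNLZ, which keeps mitochondrial HSP70 soluble, C12orf57, CENPV, SPATS2L, the phosphatase DUSP26, PCOLCE, which enhances procollagen processing, the dihydrouridine synthase DUS3L, MPDU1, which is needed to use dolichol-linked mannose, the kinetochore protein PMF1, ZNF428 and PEBP1. PEBP1, an inhibitor of RAF kinase, read 5588, 5883 and 5519 against 2967, 2899 and 2887.

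A further group of genes became detectable only with vorinostat. In 456 of the 9780 genes the probe was detected on all 3 vorinostat arrays and on 0 DMSO arrays, and 257 of these passed the test as higher. The reverse pattern was found in 12 genes, of which 9 passed as lower. Both sets entered the test only through the group that detected them, so their direction follows from that rule and the counts are a description. The brightness and detected probes of the arrays differed in the same direction, as given above, and their part in this split was not tested. For such genes the fold change is a bound, taken against the higher of the probe's own DMSO signal and the lowest signal among detected probes. RPRML, a relative of the cell cycle inhibitor reprimo, read 102, 112 and 112 with DMSO and 358, 372 and 425 with vorinostat and was at least 3.51-fold higher (adjusted p = 2.1e-08). RRAS, a GTPase of the RAS family, read 111, 107 and 118 against 300, 268 and 280 and was at least 2.52-fold higher. The receptor pair ENG and ACVRL1, which bind BMP9 on endothelial cells, were at least 1.92-fold and 1.88-fold higher, with 105, 103 and 99.4 against 223, 215 and 180 for ENG. Bounds were 2.04-fold for MMP9, a gelatinase, 2.22-fold for LRRC32, which tethers latent TGF-beta, 2.30-fold for RNU4-1, 2.09-fold for PTGR1, a reductase of prostaglandins, and 1.83-fold for both CFD, the complement factor D, and the ephrin EFNB3. Among the 9 genes detected only with DMSO the bounds were small, the largest 1.29-fold (THAP5), 1.25-fold (ENTREP2) and 1.24-fold (LKAAEAR1), followed by FGD2, HUS1B, DLK2, LRRC34, KIR2DL1 and CD1B. A dimmer DLK2 probe rose by a log2 of 0.63.

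The signals of spliceosomal RNAs, 7SK and Y RNAs rose together. The methods isolated total RNA with the RNeasy MiniKit, and how well isolation and labeling recovered RNAs this short was not tested. Of 14 tested genes in the snRNA class of RefSeq, 12 rose and 0 fell, and all 4 Y RNAs rose. RNU4-2, which encodes the U4 RNA of the spliceosome, read 297, 324 and 382 with DMSO and 1555, 2364 and 1915 with vorinostat and was 5.77-fold higher (adjusted p = 0.00048). The U1 genes RNU1-1, RNU1-3, RNVU1-7 and RNVU1-18, whose RNA recognizes the start of introns, rose between 3.15-fold and 3.95-fold, for example from 355, 310 and 431 to 1336, 1626 and 1350 for RNU1-3. These U1 copies are nearly identical in sequence, so their probes cannot be told apart as separate genes. RNU6-1, the catalytic U6 RNA, read 2514, 2011 and 2737 against 4501, 5419 and 4433 (log2 0.99), and RN7SK, the 7SK RNA that holds the elongation factor P-TEFb inactive, read 436, 420 and 378 against 1007, 1504 and 1011 (log2 1.49). The second vorinostat array was the highest of its group for each of these RNAs. RNY4 read 450, 264 and 495 with DMSO and 884, 1078 and 873 with vorinostat (log2 1.28), and RNY5, RNY1 and RNY3, the other Y RNAs bound by the Ro protein, rose by log2 0.83, 0.68 and 0.48. SNAR-A1 rose by a log2 of 0.52. RNU2-1 (0.37, adjusted p = 0.021 in a fit that blocks on the replicate number) and RNU6ATAC (0.34) were the 2 snRNAs that did not pass.

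Small nucleolar RNAs did not share this pattern. Of 111 tested snoRNA genes 6 rose and 5 fell, against 18.4% and 11.3% of all genes. SNORD3D, a U3 gene needed for cleavage of the ribosomal precursor, rose by a log2 of 1.14, from 284, 303 and 375 to 651, 823 and 641, a call that was lost in 11 of 16 alternative settings, and SNORD13, a U13 gene, by 0.89. SNORA70, SNORD65, SNORA64 and SNORA10, which guide modification of ribosomal RNA from within introns of protein-coding genes, had log2 differences of -0.59, -0.55, -0.54 and -0.53. The RNA of the signal recognition particle, RN7SL1, stayed between 11620 and 13580 on the 6 arrays (log2 0.05, adjusted p = 0.69). RNA polymerase III makes RN7SL1, U6, 7SK and Y RNAs, and the part of this polymerase in their values was not tested. Over all 158 short RNA genes, microRNA genes included, 23 rose and 6 fell with a median log2 difference of 0.08, against 0.04 over the 9780 genes. The increases numbered 13 without the first DMSO array and 14 or 15 without any 1 of the vorinostat arrays, and the decreases 11 without the second DMSO array.

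**Figure D3:**
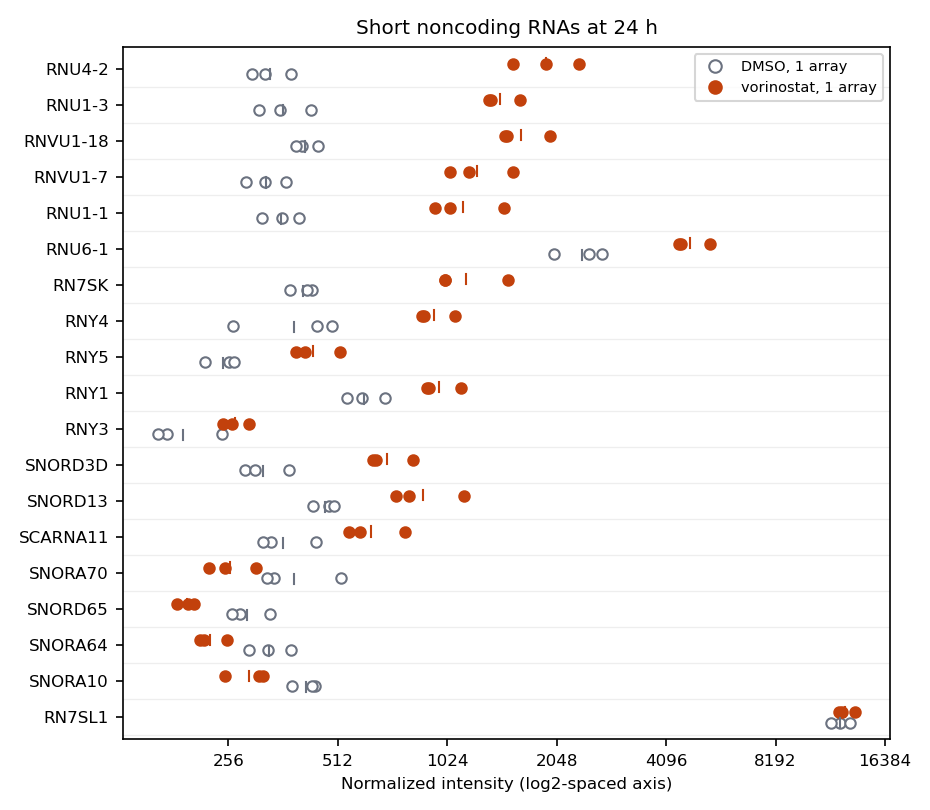
Normalized intensity of 19 short noncoding RNA genes on each 24 h array on a log2-spaced horizontal axis, with open points for DMSO, filled points for vorinostat and a short line at each group's geometric mean. The spliceosomal, 7SK and Y RNAs and SNORD3D, SNORD13 and SCARNA11 lie higher with vorinostat, 4 intron-encoded snoRNAs lie lower, and RN7SL1 stays between 11620 and 13580.

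Most longer noncoding RNAs and zinc finger genes did not pass the test, and those that did were more often higher than lower. Of 84 antisense and intergenic RNAs 19 rose (22.6%, against 18.4% of all genes) and 1, FBXL19-AS1 (log2 -0.38), fell. Besides FGF14-AS2, the largest increases were those of ZEB1-AS1 (log2 1.05, with 0.01 at a dimmer probe), KRT10-AS1 (1.03) and PPP3CA-DT (0.87). KRT10-AS1 read 540, 487 and 494 with DMSO and 1032, 1027 and 1033 with vorinostat, so that both groups were tight and far apart. Whether a probe separates an antisense RNA from the gene it overlaps was not examined here. Of 297 genes named ZNF, which mostly encode DNA-binding repressors, 60 rose and 8 fell, a share of increases near that of all genes, and the counts were 37 and 16 under median scaling, 61 and 13 with the replicate block and 25 and 5 without the second vorinostat array, the fewest increases when single arrays were left out. ZNF217 (0.88), ZNF277 (0.65) and ZNF594 (0.56) rose, ZNF558 was at least 1.48-fold higher, and ZNF428 (-0.96), ZNF576 (-0.58), ZNF33B (-0.54) and ZNF33A (-0.46) fell.

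**Figure D4:**
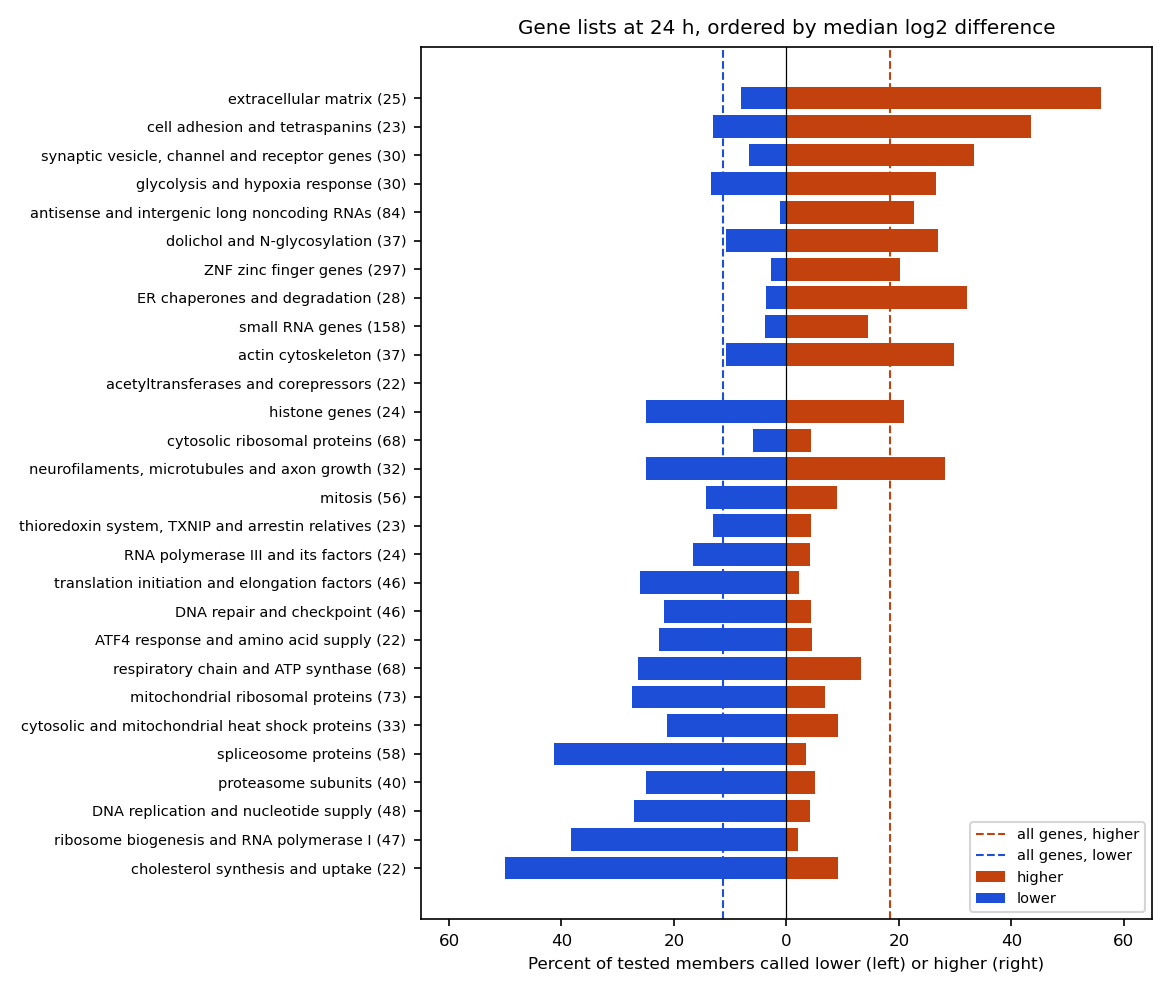
For 28 gene lists with 20 or more tested members (number in parentheses), bars give the percent of members called higher (right) or lower (left) at 24 h, ordered by the median log2 difference of the list. Dashed lines mark the shares over all 9780 genes, 18.4% higher and 11.3% lower, and extracellular matrix and cholesterol synthesis stand at the opposite ends.

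Matrix and mesenchymal genes rose more often than they fell. Of 65 extracellular matrix genes on the array 25 were tested, of which 14 rose and 2 fell, with a median log2 difference of 0.40. The shares were 56% and 8%, against 18.4% and 11.3% of all genes. Members detected with vorinostat only, such as LAMB2, entered the test through that group, so their direction follows from the filter. COL5A1, a chain of type V collagen, was detected on 2 of 3 DMSO arrays and read 149, 137 and 113 against 345, 325 and 328 (log2 1.33). FBLN1, the matrix glycoprotein fibulin 1, read 178, 201 and 184 against 375, 372 and 366 (log2 0.99, with 0.67 and 0.23 at dimmer probes). LAMC1, a laminin chain, rose by a log2 of 0.75, AGRN, a heparan sulfate proteoglycan of basement membranes, rose by 0.73, and LAMB2, another laminin chain, was at least 1.52-fold higher. The exceptions were TIMP1, an inhibitor of matrix metalloproteinases, which read 2306, 1653 and 1783 against 1066, 1007 and 898 (log2 -0.94), and BGN, biglycan (-0.31).

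Of 30 genes of mesenchymal identity on the array 16 were tested, of which 9 rose and 0 fell (median 0.37). The share of increases was 56%, against 18.4% of all genes, and it counts CDH11, which was detected with vorinostat only. VIM, the intermediate filament vimentin, read 1339, 1671 and 1811 with DMSO and 3426, 4060 and 3449 with vorinostat (log2 1.19, adjusted p = 1.6e-06), and its dimmer probe gave 1.42. S100A4, a calcium-binding protein of motile cells, rose by 0.72 and TWIST1, a transcription factor of the neural crest, by 0.44, while CDH11, a mesenchymal cadherin, was at least 1.58-fold higher. A change in RNA per cell and a change in the share of cells that express a gene cannot be told apart in these bulk samples of a single line. Of 23 adhesion and tetraspanin genes 10 rose and 3 fell (median 0.17). Besides CD24 these were led by TSPAN13 (0.96), TSPAN4 (0.88) and CADM1 (0.77), an immunoglobulin-type adhesion protein that read 1473, 1481 and 1384 against 2681, 2734 and 2032, whereas ICAM3 (-0.45), JAM2 (-0.37) and CD82 (-0.21) fell, the last with an adjusted p of 0.0562 in the fit with the replicate number as a block. Of 37 actin cytoskeleton genes 11 rose and 4 fell (29.7% and 10.8%, against 18.4% and 11.3% of all genes, median 0.07). TMSB15A, a thymosin that binds actin monomers, read 141, 160 and 159 against 344, 364 and 366 (log2 1.22), and RHOC, a GTPase of stress fibers, 848, 806 and 911 against 2327, 1933 and 1690 (1.20). CNN2 (0.95) rose, and TPM4 (-0.51), MARCKSL1 (-0.40), ACTN4 (-0.32) and MSN (-0.24) fell, MSN with an adjusted p of 0.0614 in the fit with the replicate block.

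Within the insulin-like growth factor axis, 4 of 10 tested genes rose and 1 fell. Besides IGFBP5, these were IGF2R, which clears IGF2 (log2 0.63), the adaptor IRS2 (0.49) and IGFBP3 (0.45, detected on 1 of 3 DMSO arrays, with 0.14 at a dimmer probe), and IGF2 itself fell (-0.42). IGFBP2 (0.19), IGFBP4 (-0.05), IGFBP7 (-0.18), IRS1 (0.00) and IGF2BP3 (-0.20) did not pass. Of 13 genes of retinoic acid binding and response, 2 rose and 3 fell. The 2 lipid carriers that compete for retinoic acid moved apart, CRABP2 up and FABP5 down, from 4099, 3289 and 3844 to 2333, 2075 and 2363 (log2 -0.73). STRA6, the receptor that takes up retinol, rose by 0.34, and the retinal-producing RDH11 (-0.37) and the retinoic acid-producing ALDH1A2 (-0.26) fell.

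The neuronal and secretory genes did not move as a block. Of 13 granin and neuropeptide genes 6 rose and 2 fell (median 0.38). VGF, the precursor of neuroendocrine peptides, read 4387, 4845 and 3566 with DMSO and 9065, 8542 and 7849 with vorinostat (log2 1.00), and SCG2, secretogranin II, 4745, 5049 and 4560 against 8532, 8571 and 8637 (0.84). CHGB (0.67) and the peptide VIP (0.66) rose as well, while GAL, galanin, read 1888, 1190 and 1647 against 1017, 782 and 794 (-0.85) and ADCYAP1, the precursor of PACAP, fell by 0.31. CHGA, chromogranin A, did not pass, with 10480 to 13930 on the 6 arrays (0.02).

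In catecholamine synthesis 2 of 12 genes rose and 5 fell. TH, the rate-limiting tyrosine hydroxylase, read 837, 875 and 910 against 377, 466 and 585 (log2 -0.90, adjusted p = 0.0016), with -1.03 at a dimmer probe. DBH fell by 0.50 and SLC18A1, the vesicular monoamine transporter of chromaffin cells, by 0.63. The makers of the cofactor tetrahydrobiopterin split, with PCBD1 (-1.17) and PTS (-0.52) lower and GCH1 (0.42) and QDPR (0.28) higher. Of 16 noradrenergic transcription factors 5 rose and 1 fell. TBX2 read 1240, 1420 and 1221 against 2251, 2265 and 1749 (log2 0.68), TLX2 rose by 0.66, GATA2 by 0.51, TFAP2B by 0.36 and HAND1 by 0.24, INSM2 fell by 0.33, and PHOX2A (0.20) and HAND2 (0.18) did not pass. Without the third DMSO array or the first vorinostat array 3 of the factors rose.

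Of 30 synaptic genes 10 rose and 2 fell (median 0.16). SYT1, the calcium sensor of vesicle fusion, read 726, 684 and 638 against 1226, 1460 and 1097 (log2 0.88), HTR3A, a subunit of the serotonin-gated channel, rose by 0.85 (0.08 at a dimmer probe), and the nicotinic subunit CHRNB4 by 0.47. Without the first DMSO array 5 synaptic genes rose, and without the first or second vorinostat array 6. The complexins CPLX2 (-0.57) and CPLX1 (-0.47), which clamp vesicle fusion, fell. Among 32 genes of neurofilaments, microtubules and axon growth 9 rose and 8 fell, and the counts were 8 and 9 under median scaling, 6 and 8 without the third DMSO array and 6 and 6 without the first vorinostat array. DCX, DPYSL4 (0.81), MAPT, which encodes tau (0.62, with 0.02 at a dimmer probe), and the RNA-binding ELAVL4 (0.54) rose, whereas the beta tubulins TUBB2A (-0.76), TUBB6 (-0.67) and TUBB3 (-0.46) and the microtubule-destabilizing STMN3 (-0.41) fell. TUBB3 read 3201, 3015 and 3162 against 2299, 2117 and 2391. In smaller lists, 0 of 4 receptor and ligand genes of ALK, RET and neurotrophins rose and GFRA2 fell (-0.43). Of 9 ganglioside genes 2 rose (B4GALT5, 0.45, and B4GALNT1, at least 1.20-fold) and ST8SIA3 fell (-0.40, with -0.08 at a dimmer probe). UGCG (0.14), ST3GAL5 (0.20), ST3GAL1 (0.02), ST3GAL2 (0.04), SLC33A1 (0.06) and CASD1 (-0.02) did not pass. RET (0.27), PTN (0.25) and MDK (0.10) did not pass either.

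Cholesterol synthesis had the lowest median of the 28 lists with 20 or more genes. Of 22 genes 11 fell and 2 rose, with a median log2 difference of -0.35, and 7 fell without the first DMSO array. Along the pathway ACAT2 (-1.34) was followed by HMGCS1 (-0.74), MVD (-0.60), IDI1 (-0.55), FDPS (-0.37), LSS (-0.58), EBP (-0.79), SC5D (-0.89) and DHCR7 (-0.53). SC5D, the lathosterol desaturase, read 898, 828 and 781 with DMSO and 435, 429 and 488 with vorinostat, and EBP, the sterol isomerase before it, 1441, 1199 and 1200 against 704, 707 and 802. TM7SF2, a sterol reductase, went the other way and read 173, 189 and 217 against 299, 330 and 322 (0.72). Of the regulators, INSIG1 fell (-0.63) and INSIG2 rose (0.27). In fatty acid synthesis 3 of 15 genes fell, FADS1 (-0.53), ELOVL6 (-0.45) and FASN (-0.43), and 2 rose, SCD5 (0.61) and ACACB (at least 1.22-fold), and 5 fell with the replicate block.

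Energy metabolism was mixed. Of 30 glycolysis and hypoxia genes 8 rose and 4 fell. SLC2A3, a glucose transporter of neurons, read 129, 153 and 147 against 267, 307 and 263 (log2 0.96), while SLC2A1, the ubiquitous glucose transporter, read 837, 786 and 866 against 565, 565 and 531 (-0.58). P4HA2 (0.88), HIF1A (0.78) and ALDOC (0.74) rose, and GPI (-0.40), ENO1 (-0.27) and PKM (-0.26) fell. Leaving out any 1 array other than the second DMSO array left 1 or 2 decreases. Of 68 genes of the respiratory chain and ATP synthase 18 fell and 9 rose, among them the complex I subunits NDUFA6 (-0.83) and NDUFA9 (-0.53) in one direction and NDUFA3 (0.36) and NDUFA2 (0.34) in the other. Without the first DMSO array 11 fell and 4 rose, and without the second vorinostat array 12 and 3.

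Genes of RNA processing and translation fell more often than they rose. Of 58 spliceosome proteins 24 fell and 2 rose (median -0.18), and without the second vorinostat array 15 fell and 0 rose. PRPF8, the scaffold of the catalytic core, read 1444, 1609 and 1313 with DMSO and 791, 827 and 792 with vorinostat (log2 -0.85, adjusted p = 6.6e-05). HNRNPC, which coats nascent transcripts, fell by 0.76 and SF3B3, a part of the U2 particle, by 0.67, and HNRNPH1 read 2776, 3004 and 3053 against 1674, 1848 and 2420 (-0.59). The U1 proteins SNRPA (-0.50) and SNRPC (-0.46) were lower, whereas SF3B5 (0.38) and CDC5L (0.35) were higher. Of 47 ribosome biogenesis genes 18 fell and 1 rose (median -0.22), a count of decreases that was 7 without the second vorinostat array, 8 without the first DMSO array, 11 without the first vorinostat array and 8 in the methods' analysis of variance. NOP14 (-0.59), LYAR (-0.55), NOP2 (-0.54) and MRTO4 (-0.53) led, NOP10 rose by 0.23, and the nucleolar proteins NCL, nucleolin (-0.21), and FBL, fibrillarin (-0.12), did not pass.

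The 68 cytosolic ribosomal proteins themselves gave 3 increases and 4 decreases, fewer than the shares over all genes, led by RPS7 (log2 0.49) and RPL34 (-0.34, with 0.09 at a dimmer probe), and without the second vorinostat array 1 rose and 0 fell. Of 73 mitochondrial ribosomal proteins 20 fell and 5 rose (median -0.13), with MRPS26 (-0.70), MRPS2 (-0.66), MRPS7 (-0.60) and MRPS24 (-0.60) lowest, and 13 fell without the second vorinostat array. Of 46 translation factors 12 fell and 1 rose, with 5 decreases in the methods' analysis of variance. EIF5A, the factor that carries hypusine, a residue made from spermidine, read 2031, 1557 and 2317 against 1215, 873 and 1470 (-0.74), EIF6 read 1861, 1490 and 1557 against 972, 1009 and 1027 (-0.70), and EEF2 rose by 0.35. In polyamine metabolism, the synthetic enzymes SRM (-1.11) and ODC1 (-0.46) fell, while AZIN1 (0.58, with 0.57 and 0.07 at dimmer probes), which spares ODC1 from degradation, rose. SAT1 (0.34) and PAOX (at least 1.21-fold), which break polyamines down, rose, as did ARG2 (at least 1.14-fold). Without the second DMSO array the list of 14 genes gave 2 increases and 3 decreases. Of 18 aminoacyl-tRNA synthetases 5 fell and 0 rose, with MARS1 and HARS1 at -0.51, and leaving out any 1 array other than the first DMSO array left 2 or 3. Of 24 RNA polymerase III genes 4 fell and 1 rose (16.7% and 4.17%, against 11.3% and 18.4% of all genes). The subunit POLR3GL rose from 452, 455 and 564 to 984, 860 and 971 (0.94). GTF3C6, POLR3K (-0.50), POLR3C (-0.39) and BRF2 (-0.34) fell, with 7 decreases under the replicate block.

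Genes of DNA replication fell more often than they rose, and the median mitotic gene barely moved. Of 48 replication and nucleotide genes 13 fell and 2 rose (median -0.22). MCM5, a subunit of the replicative helicase, read 1299, 1253 and 1147 against 790, 715 and 716 (log2 -0.74), and CTPS1 (-0.53), POLA2 (-0.52) and CDC45 (-0.43) were lower next to TYMS. GINS4, another part of the helicase, went up from 261, 213 and 263 to 408, 358 and 455 (0.73), as did RPA3 (0.52), and MCM2 (-0.18) and PCNA (-0.25, adjusted p = 0.028 with the replicate block) did not pass. Of 56 mitosis genes 8 fell (14.3%, near the 11.3% of all genes) and 5 rose (8.93%, against 18.4%), with a median of -0.01. Examples were PMF1 (-0.96), CENPM (-0.74), CDC25A (-0.56) and CDCA8 (-0.46) against HMMR (0.52), CENPA (0.49), NEK2 (0.38) and TOP2A (0.35). The replicate block gave 11 decreases and 9 increases, leaving out the first DMSO array 6 and 1, the first vorinostat array 5 and 4 and the second vorinostat array 6 and 2. CCNB1 (-0.03) and CDK1 (0.10), the cyclin and kinase of entry into mitosis, did not pass. In DNA repair 10 of 46 genes fell and 2 rose, with UNG (-0.58), PARP2 (-0.51), BRCA1 (-0.48) and TIMELESS (-0.46) lower and FANCC (0.36) and ERCC5 (0.35) higher, and 6 fell without the first DMSO array or the second vorinostat array.

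Of 5 CDK inhibitors none rose. CDKN1A, which encodes p21 and is known as a target of this drug class, read 145, 146 and 169 with DMSO and 222, 213 and 182 with vorinostat (log2 0.42, adjusted p = 0.0504), so the groups did not overlap and the test missed its threshold, which it passed in a fit of the 6 arrays alone (adjusted p = 0.0062). CDKN1B, which encodes p27, read 742, 759 and 765 against 518, 607 and 541 (-0.45) and fell, with -0.11 at a dimmer probe. CDKN2A (-0.24), CDKN2B (-0.13) and CDKN2D (0.00) did not pass. Of 17 G1 cyclin, kinase and RB family genes 3 rose (17.6%, near the share of all genes) and 1 fell, against 0 and 1 in the methods' analysis of variance. CCND1, cyclin D1, read 4489, 4493 and 3003 against 6160, 7003 and 5159 (0.63), RBL2 rose by 0.53 and RB1 by 0.42, and CDK4 fell by 0.25. MYCN (0.15) did not pass, and of 11 genes of its network MXI1 alone rose (0.37).

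Genes of cell death were few and split. Of 10 BCL2 family genes 1 rose and 2 fell (10% and 20%, against 18.4% and 11.3% of all genes). BID, which carries the death receptor signal to mitochondria, read 750, 668 and 654 against 390, 308 and 391 (log2 -0.93). BCL2L1, which encodes BCL-XL, fell by 0.34 (-0.06 at a dimmer probe), and BCL2 rose by 0.35 (0.32 and -0.14 at dimmer probes). The calls of BCL2L1 and BCL2 were lost with the mean of the detected probes. BAX (-0.03), BAD (0.13), MCL1 (0.08), BCL2L2 (0.23), BMF (0.24), BBC3 (0.16) and PMAIP1 (0.22) did not pass. Of 14 caspases and regulators 4 fell and 2 rose (28.6% and 14.3%, against 11.3% and 18.4%). Decreases were those of FAIM, AVEN (-0.88), CASP2 (-0.60, with -0.42 and -0.03 at dimmer probes) and DIABLO (-0.28, with -0.30 and -0.01 at dimmer probes). Increases were those of APAF1 (0.66, detected on 2 of 3 DMSO arrays) and CYCS (0.62), the apoptosome partners.

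Genes of protein quality control moved in both directions. Of 28 genes of endoplasmic reticulum chaperones and degradation 9 rose and 1 fell (median 0.10). HSPA5, the chaperone BiP, read 668, 649 and 613 with DMSO and 1008, 1030 and 1002 with vorinostat (log2 0.66, adjusted p = 4.6e-05), EDEM2 rose by 0.57, EDEM1 by 0.46 (detected on 2 of 3 DMSO arrays) and PDIA4 by 0.42, and CRELD2 fell by 0.76, and without any 1 of the vorinostat arrays 5 rose. Of 33 cytosolic and mitochondrial heat shock genes 7 fell and 3 rose (median -0.17), with HSPH1 (-0.58), DNAJA1 (-0.45), HSPA14 (-0.39) and HSPD1 (-0.38) lower and HSPA2 (0.67), CDC37 (0.33) and HSPA4L (0.28) higher, and 3 fell without the first vorinostat array and 4 without the second DMSO or second vorinostat array. Of 40 proteasome genes 10 fell and 2 rose (median -0.19), and 20 fell with the replicate block and 5 without the first DMSO array. PSMB6, a catalytic beta subunit, read 4619, 4127 and 3754 against 2782, 2558 and 2734 (-0.63), while the 2 that rose, PSME1 (0.64) and PSME2 (0.24), encode the activator PA28. Of 37 dolichol and N-glycosylation genes 10 rose and 4 fell, among them ALG10B (0.62), OST4 (0.40) and ALG13 (0.39) against MPDU1, ALG3 (-0.40), ALG9 (-0.34) and ALG12 (-0.30). Dimmer ALG10B probes gave -0.06 and 0.25. This list gave 3 increases and 4 decreases without the first vorinostat array, 5 and 2 without the second and 6 and 3 without the first DMSO array. In the amino acid supply genes of ATF4, 5 of 22 fell, among them PSAT1 (-0.63), SLC3A2 (-0.62), SLC7A5 (-0.55) and MTHFD2 (-0.54), and VLDLR was at least 1.30-fold higher, and 3 fell without the first DMSO or second vorinostat array.

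Of the 7 deacetylase genes of the HDAC series that were detected, 3 rose and 0 fell, against 18.4% and 11.3% of all genes. Without HDAC6 the list gave 2 increases among 6 genes, and 0 in the methods' analysis of variance. HDAC4 read 111, 130 and 122 with DMSO, where 2 of 3 arrays detected it, and 144, 163 and 157 with vorinostat (log2 0.36, lost in 1 of 15 settings). HDAC9 read 157, 151 and 152 against 195, 220 and 180 (0.36, lost in 10 of 16 settings). HDAC6, the tubulin deacetylase that is also counted among autophagy genes, read 126, 132 and 130 against 148, 170 and 168 (0.32, lost in 6 of 16 settings). HDAC1 (0.11), HDAC2 (0.05), HDAC3 (0.12) and HDAC8 (0.09), members of class I, did not pass. Of 22 acetyltransferases and corepressors 0 rose and 0 fell in limma, against 1 and 2 at an unadjusted p under 0.05, 2 and 3 with the replicate block and 2 and 1 in the methods' analysis of variance. Of 24 histone genes 5 rose (20.8%, near the 18.4% of all genes) and 6 fell (25%, against 11.3%). Only 3 rose without the first or the second DMSO array and without the first or the third vorinostat array. H2AJ and H2AZ2 (0.42), both variants made outside S phase, H1-2 (0.39) and H2BC8 (at least 1.32-fold) were higher, and H2BC12, MACROH2A2 (-0.66), H2AC18 (-0.58) and H2BC21 (-0.48) were lower. Histone genes are near-identical copies, so the probes may read several. Of 12 Polycomb and DNA methylation genes 2 rose, JARID2 (0.48) and TET1 (0.28, with -0.07 and -0.13 at dimmer probes). PHF19 and UHRF1 (-0.42, with 0.007 at a dimmer probe) fell. Each share was 16.7%, against 18.4% higher and 11.3% lower of all genes.

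Among transcription factors of the early response, 4 of 18 rose (22.2%, close to the 18.4% of all genes) and 1 fell (5.56%, against 11.3%). EGR1 read 253, 252 and 236 with DMSO and 645, 574 and 510 with vorinostat (log2 1.22), IER3 rose by 0.73 (detected on 2 of 3 DMSO arrays), BATF3 and FOS were at least 1.32-fold and 1.07-fold higher, and SRF fell by 0.31. Of 11 HES and ID factors HEY1, a target of Notch, rose by 0.99 (0.09 at a dimmer probe) and HES1 by 0.48. Of 10 KLF and SP factors KLF9 read 253, 276 and 249 against 411, 408 and 440 (0.69), KLF12 rose by 0.49 (detected on 1 of 3 DMSO arrays), and SP1 (-0.15) and SP3 (-0.02), which bind GC boxes, did not pass, nor did SP2 (-0.09), SP4 (-0.01), KLF2 (0.09), KLF6 (0.03), KLF10 (0.24) and KLF15 (0.23). Around P-TEFb, CDK9, its kinase, rose by 0.55 and MEPCE, which caps 7SK, fell by 0.48, the only calls among 11 genes. Of 11 genes of MHC class I presentation 3 rose (27.3%, against 18.4%), ISG15 (0.60, detected on 2 of 3 DMSO arrays), B2M (0.38) and HLA-E (at least 1.40-fold). Of 5 metallothionein and zinc response genes MT2A, a zinc-binding protein, read 414, 350 and 382 against 683, 632 and 549 (0.70), MT1F was at least 1.26-fold higher, and MT1X (0.26, adjusted p = 0.0408 with the replicate block), MTF1 (0.21) and SLC30A1 (0.10) did not pass. Of 23 thioredoxin and antioxidant genes 3 fell, TXNRD2 (-0.75), GPX1 (-0.72) and NQO1 (-0.50), and HMOX1 was at least 1.19-fold higher. Of 8 protein kinase A genes PRKAR1B fell (-0.59) and AKAP12 rose (0.36), while PRKAR1A (0.11), PRKAR2A (-0.05), PRKACB (0.13), AKAP1 (0.03), PKIA (-0.21) and PKIG (0.08) did not pass. CD14 was the 1 of 2 tested leukocyte markers that rose (0.35), and KRT19 (0.04) did not pass.

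The 6 d arrays, all from a single BeadChip, put these values beside a later time. The paper describes 24 h of treatment only for the arrays, and the array titles do not say how long vorinostat was present. Of the 25 genes with the largest increases at 24 h, 17 were lower and 4 were higher with vorinostat at 6 d, against 7.67% and 4.05% of the 9780 genes, and their median log2 difference went from 1.55 to -0.64. Of the 25 genes with the largest decreases, 18 were higher and 0 were lower at 6 d, and the median went from -1.08 to 0.58. The DMSO arrays themselves differed between the times. With DMSO, CRABP2 read 168, 186 and 308 at 24 h and 1102, 1390 and 1011 at 6 d. GTF3C6 read 1120, 1017 and 982 against 397, 418 and 586. Among the increases CCDC102A moved opposite to CRABP2, from 609, 551 and 573 to 223, 285 and 312. The part of this solvent baseline in the reversal was not tested. The difference between the times itself passed the test in 24 of the 25 leading increases, all lower at 6 d, and in all 25 leading decreases, all higher at 6 d, against 20.1% and 12.2% of the 9780 genes, and since the genes were chosen by their 24 h values these counts are a description. CCDC102A (0.92), TSPAN8 (0.89), MGP (0.60) and HIGD1C (0.58) were the 4 that were higher at both times, and CD24 (0.19) and TTC8 (-0.01) did not pass at 6 d. RNU4-2 (-2.02), RN7SK (-2.01), TMEM119 (-1.88), RAC2 (-1.38) and DCX (-1.34) were among those lower at 6 d. For the short RNAs the 6 d DMSO arrays were spread widely, with the second the highest. RNU4-2 read 1800, 7173 and 864 with DMSO against 623 and 485 with vorinostat, and RN7SK 2520, 5218 and 901 against 642 and 501. The number of detected probes was higher with vorinostat at 24 h and lower with it at 6 d, and its part was not tested. The groups of both times rest on the sample labels, and no value used here checks treatment or time independently of them.

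**Figure D5:**
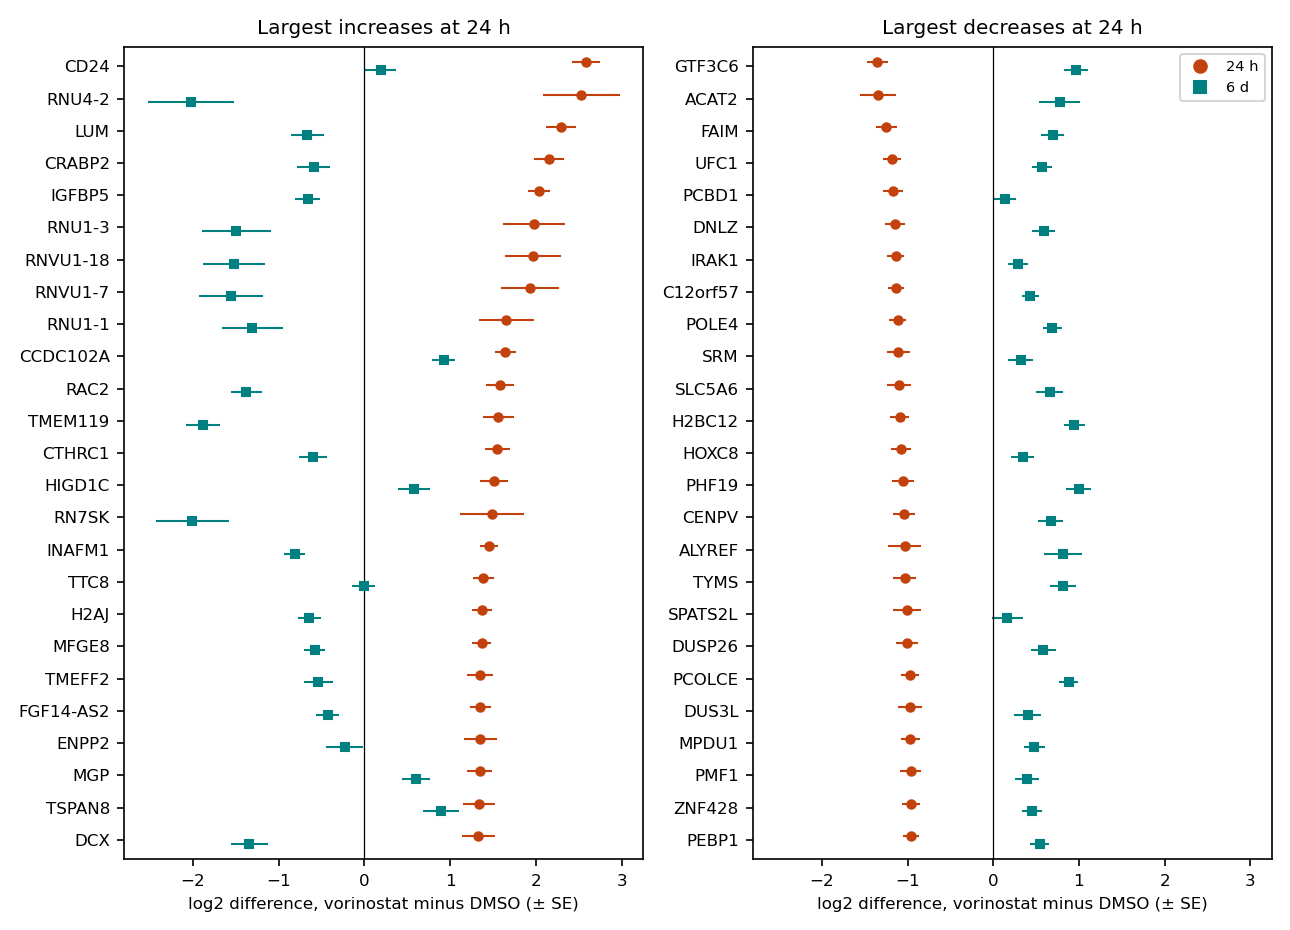
Log2 difference of vorinostat minus DMSO (± SE) at 24 h (circles) and at 6 d (squares) for the 25 genes with the largest increases (left) and decreases (right) at 24 h. The median of the left set lies at 1.55 and -0.64 and that of the right set at -1.08 and 0.58.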

How the data were processed

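The authors hybridized labeled RNA to Illumina HT-12 v4 BeadChips and normalized the intensities in BeadStudio without background subtraction, and these deposited linear intensities were the values tested. The deposited table of non-normalized intensities with detection p-values was matched to them by value (48107 probes), and a probe counted as detected at p under 0.01 and above the centre of the background. Each gene was read from its brightest probe detected on all arrays of a 24 h group (13016 probes, 2520 genes with several).

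Log2 intensities of all 11 arrays were fitted in 4 groups with limma 3.58.1 in R 4.3.3 (lmFit, eBayes with trend), and adjusted p-values (Benjamini-Hochberg) were called under 0.05. Tested on simulated data of 9941 genes, the fit recovered 65.4%, 99.1% and 100% of log2 changes of 0.5, 1 and 2 at 24 h, with 4.74% false calls. The simulation changed 200 genes per run and drew independent normal noise. It held no chip, brightness or replicate effect, so these rates do not cover calls that such effects would give. Arrays with the same replicate number, which the labels give, deviated together at 24 h (r = 0.186, 0.311 and 0.383). For arrays with unlike numbers r lay between -0.330 and 0.052. The methods describe experiments with both treatments but do not say that the replicate numbers follow them. What such arrays share was not tested. Calls come from the fit without pairing, and the fit with the replicate number as a block is an alternative. Alternatives were background correction (normexp), other scaling, filters, probe rules, the replicate block and leaving out each array. Precision is limited by how few arrays there were.

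The genes named were the 25 with the largest log2 difference in each direction among called genes with no overlap and detection on all 6 arrays, the 10 with the largest bound in each direction among genes detected in a single group, from each of 58 gene lists all members up to 10, otherwise up to 4 in each direction, and all HDAC genes. The result of 1 list is not reported here. Some further members of lists were named after their values were seen. The members and lists were chosen with earlier results of these data known. Gene names came from the platform annotation of GEO (30113 probes with 1 gene, 8 with several, 17986 with none), and promoters from RefSeq (GRCh38.p14).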

Additional observations from a re-analysis of the deposited data

Results flagged for a closer look

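The change with vorinostat was compared between the times as the 6 d difference minus the 24 h difference in the same limma model, for the leading genes only, and the genes below are those in which it passed an adjusted p of 0.05. All were chosen by their 24 h values, so the size of this contrast is not independent of the choice. The 6 d groups hold 3 and 2 arrays of a single BeadChip, and the 24 h groups lie on a chip each. The vorinostat arrays held more detected probes than the DMSO arrays at 24 h and fewer at 6 d, and the part of this was not tested. The DMSO intensities of leading genes also differed between the times, as given above, so a contrast does not show which group moved.

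Of the 25 genes with the largest increases, 24 had a lower difference at 6 d, TSPAN8 being the exception. For the short RNAs the log2 contrast was -4.55 for RNU4-2, -3.50 for RN7SK, -3.49 for RNVU1-18, -3.49 for RNVU1-7, -3.48 for RNU1-3 and -2.96 for RNU1-1. These contrasts rest on 6 d DMSO arrays that differed widely, for example 994, 3142 and 577 for RNU1-3. For surface and secreted proteins it was -2.40 for CD24, -2.96 for LUM, -2.70 for IGFBP5, -2.15 for CTHRC1, -1.95 for MFGE8, -1.58 for ENPP2, -0.74 for MGP, -3.44 for TMEM119 and -1.89 for TMEFF2. For intracellular proteins it was -2.75 for CRABP2, -2.96 for RAC2, -2.67 for DCX, -2.01 for H2AJ, -1.40 for TTC8, -0.72 for CCDC102A and -0.94 for HIGD1C, and it was -2.27 for INAFM1 and -1.78 for FGF14-AS2.

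All 25 genes with the largest decreases had a higher difference at 6 d. Among enzymes and transporters the log2 contrast was 2.12 for ACAT2, 1.75 for UFC1, 1.30 for PCBD1, 1.43 for SRM, 1.76 for SLC5A6, 1.85 for TYMS, 1.37 for DUS3L, 1.44 for MPDU1, 1.43 for IRAK1 and 1.59 for DUSP26. Among nuclear proteins it was 2.32 for GTF3C6, 1.81 for POLE4, 2.03 for H2BC12, 1.42 for HOXC8, 2.05 for PHF19, 1.71 for CENPV, 1.84 for ALYREF, 1.36 for PMF1 and 1.41 for ZNF428. It was 1.94 for FAIM, 1.74 for DNLZ, 1.57 for C12orf57, 1.17 for SPATS2L, 1.85 for PCOLCE and 1.50 for PEBP1.

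All 10 genes named as detected only with vorinostat at 24 h had a lower difference at 6 d, with contrasts of -2.43 for RPRML, -2.02 for RRAS, -1.69 for RNU4-1, -1.13 for LRRC32 and -1.73 for PTGR1 and of -2.17 for MMP9, -1.14 for ENG, -1.56 for ACVRL1, -1.18 for CFD and -1.38 for EFNB3. Of the 9 detected only with DMSO, 6 had a higher difference at 6 d, 0.49 for THAP5, 0.41 for ENTREP2, 0.60 for LKAAEAR1, 0.33 for HUS1B, 0.31 for LRRC34 and 0.70 for KIR2DL1.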

How the results depend on the processing

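At 24 h, 1840 genes were higher and 1120 lower over all 9941 genes. Counts stayed within 1.5 times of these in all 16 alternative settings except that 691 genes were lower over all genes, and 684 outside autophagy, without the second vorinostat array. Leaving out each 24 h array in turn gave 1246 to 1686 higher and 691 to 984 lower genes, and 684 to 974 lower outside autophagy. The replicate block gave 2133 higher and 1408 lower genes, and among the genes named it ended the calls of CD82, MSN, RPL12 and RPL35, added MT1X, PCNA, RNU2-1 and UFM1 and changed no other call. Scaling by array medians, which shifted all log2 differences by -0.04, gave 1484 and 1398, and the methods' analysis of variance 1259 and 784. Of 340 called genes examined singly, 210 kept their call and sign in every setting, 47 lost it in 1 setting, 62 in 2 to 7 settings and 21 in 8 or more, the last being ALDH1A2, ALG13, ARG2, CD82, CDK4, DIABLO, DLK2, ENO1, HAND1, HDAC9, HSPA4L, INSIG2, MSN, NOP10, PKM, PSME2, RPL12, RPL35, SAT1, SNORD3D and TET1. The setting that ended most of these calls was the methods' analysis of variance (93), and the array whose loss ended most was the second vorinostat array (65). With the mean of the detected probes, DLK2 (0.18) and RPS24 (0.0094) changed sign, and without the detection filter SCN2A (-0.20) did, since these settings read other probes. Of 104 dimmer probes of called genes, 62 passed in the same direction and 42 did not. The order of increases and decreases turned in these lists, given as higher and lower. The histone genes gave 6 and 5 with the mean of probes, the cytosolic ribosomal proteins 2 and 1 in the methods' analysis of variance and 1 and 0 without the second vorinostat array, the G1 cyclins 0 and 1 in the analysis of variance, the MYC network 0 and 1 in it and without the first DMSO array, the axon growth genes 8 and 9 with median scaling, 5 and 7 in the analysis of variance and 6 and 8 without the third DMSO array, the N-glycosylation genes 3 and 4 without the first vorinostat array, the polyamine genes 1 and 2 without the detection filter and 2 and 3 without the second DMSO array, and the retinoic acid genes 3 and 2 without the detection filter. Genes near background are limited most, since only a bound is known where a group is undetected.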

Other observations

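At 6 d several of the lists had medians on the other side of 0 from their 24 h values. The tests below compare the change at 6 d with the change at 24 h gene by gene, and over the 9780 genes 12.2% had a higher change at 6 d and 20.1% a lower one. Of 58 spliceosome proteins, with a median log2 difference of -0.18 at 24 h and 0.14 at 6 d, 29 had a higher change at 6 d and 1 a lower one. Of 48 replication and nucleotide genes (-0.22 and 0.20) 26 had a higher and 2 a lower change, of 40 proteasome genes (-0.19 and 0.20) 15 and 1, and of 22 cholesterol genes (-0.35 and 0.16) 10 and 2. Of 25 matrix genes (0.40 and -0.12) 15 had a lower and 2 a higher change, and of 16 mesenchymal genes (0.37 and -0.13) 10 and 0.

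Some lists kept the sign of their median, though not its size. The amino acid supply genes of ATF4 had medians of -0.11 at 24 h and -0.47 at 6 d. Of these 22 genes 9 had a lower change at 6 d and 0 a higher one. Examples were SLC7A5 at -0.55 and -0.84, SLC3A2 at -0.62 and -0.71 and PSAT1 at -0.63 and -0.66. The 16 noradrenergic transcription factors had medians of 0.21 at 24 h and 0.03 at 6 d. Among them 0 passed the test of the difference between the times in limma, while 2 were lower at an unadjusted p below 0.05. TLX2 (0.66 and 0.79), GATA2 (0.51 and 0.55) and TFAP2B (0.36 and 0.47) had nearly equal values at 24 h and 6 d. CCND1 was at 0.63 and 0.69.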
